A study of Mus musculus with 56 samples.

Results

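The genes described here belong to the mitochondrial respiratory chain and ATP synthase, with a few related genes such as Atp5s, Cox7a2l and Ndufa4l2. They were chosen by symbol from the table of visceral adipose tissue (VAT): protein-coding genes beginning with Nduf and then a, b, c, s or v, with Sdha to Sdhd, Uqcr, Cox4 to Cox8 or Atp5, and the protein genes of the mitochondrial DNA. Ndufaf assembly factors and pseudogene symbols were dropped. This gave 96 of the 25939 genes in the table, of which 83 are nuclear and 13 mitochondrial. Complex I held 36 nuclear and 7 mitochondrial members, complex II held 4 nuclear members, complex III held 8 and 1, complex IV held 18 and 3, and ATP synthase (complex V) held 17 and 2. Ndufa4 and Ndufa4l2 are counted with complex IV, where the Ndufa4 protein resides.

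The study asked how feeding in the resting phase of mice resets peripheral tissues. Female C57BL/6J mice, aged 9 weeks and kept on a 12 h light to 12 h dark cycle, had food only by day (daytime-restricted feeding, DRF) or only by night (nighttime-restricted feeding, NRF, the reference) for 7 days. VAT was collected every 4 h from ZT0 to ZT24 (zeitgeber time, in hours after lights on), from 4 mice per regimen and time point. The result is 14 groups and 56 libraries of polyadenylated RNA, each from its own mouse, and ZT0 and ZT24 are separate groups at the same clock hour. The labels name no allele or agent, so the groups differ by the hours of food and the time of collection, and the depot is a mixture of cell types.

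Electrons from NADH enter the chain at complex I and those from succinate at complex II, and pass through complex III to complex IV, which reduces oxygen. Complexes I, III and IV pump protons across the inner membrane, and ATP synthase uses the returning flow to make ATP. The subunits come from both genomes: all of complex II is nuclear, whereas the core membrane subunits of the other complexes are made inside the organelle from polycistronic mitochondrial transcripts. White adipocytes carry far fewer mitochondria than brown adipocytes, and respiration in them serves lipogenesis and lipid turnover rather than heat.

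Recovered reads on genes ranged from 31.1 M to 41.2 M per library, with a median of 34.9 M in DRF and 35.9 M in NRF. Adipoq, the adipocyte hormone adiponectin, lay at 1025 to 3770 CPM (reads scaled per M by the authors' effective library size) in every library, so adipose tissue was present throughout. The uterine epithelium list summed to 412 CPM in DRF ZT8 replicate 1 and to 996 CPM in DRF ZT0 replicate 4, against 9.10 to 63.0 CPM in the other 26 DRF libraries and 11.8 to 44.9 CPM in NRF. The same libraries held the lowest sums of the 8 adipocyte markers, 12236 and 18583 CPM, against 21789 to 39486 CPM in the other DRF libraries and 25464 to 46228 CPM in NRF. They also held the lowest average levels of the nuclear members, and the part of this in the results was not tested. All libraries are kept in the values below, and the main counts are repeated without this pair. In bulk tissue, fewer cells of a type and less RNA per cell cannot be told apart.

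The promoters of 6 nuclear members show the kind of sequence these genes share and where they differ. Nuclear respiratory genes are classically linked to the factors NRF1 (nuclear respiratory factor 1, not the feeding regimen), ETS-type GABP and YY1. The windows run from 250 bases before to 50 bases after the annotated start, 5′ to 3′ on the gene's strand, from RefSeq on GRCm38.p6. Capitals mark matches to the NRF1 motif (GCGC and GCGC with 2 free bases between), the ETS motif ACTTCCGG or the YY1 motif AANATGGC on either strand. The windows are chr13:74350191-74350490 (minus) for Sdha, chr9:108936398-108936697 (plus) for Uqcrc1, chr16:37654319-37654618 (minus) for Ndufb4, chr10:128083057-128083356 (plus) for Atp5b, chr7:30183921-30184220 (plus) for Cox7a1 and chr12:69724695-69724994 (plus) for Atp5s.
Sdha: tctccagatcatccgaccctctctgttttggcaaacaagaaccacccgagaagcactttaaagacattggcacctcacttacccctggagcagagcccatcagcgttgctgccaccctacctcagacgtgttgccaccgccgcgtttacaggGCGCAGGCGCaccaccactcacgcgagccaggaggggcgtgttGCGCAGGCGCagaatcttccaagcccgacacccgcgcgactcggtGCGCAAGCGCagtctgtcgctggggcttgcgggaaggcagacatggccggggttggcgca
Uqcrc1: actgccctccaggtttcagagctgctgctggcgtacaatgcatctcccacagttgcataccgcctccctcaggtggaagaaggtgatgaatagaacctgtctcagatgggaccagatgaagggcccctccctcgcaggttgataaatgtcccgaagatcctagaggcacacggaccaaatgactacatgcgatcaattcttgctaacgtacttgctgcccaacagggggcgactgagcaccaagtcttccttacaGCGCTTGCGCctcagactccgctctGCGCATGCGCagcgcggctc
Ndufb4: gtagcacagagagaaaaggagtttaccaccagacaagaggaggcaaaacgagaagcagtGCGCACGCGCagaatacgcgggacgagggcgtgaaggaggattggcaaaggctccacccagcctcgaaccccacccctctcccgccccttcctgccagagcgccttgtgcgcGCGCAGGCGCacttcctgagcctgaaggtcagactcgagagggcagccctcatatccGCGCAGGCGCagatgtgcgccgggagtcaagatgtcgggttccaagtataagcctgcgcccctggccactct
Atp5b: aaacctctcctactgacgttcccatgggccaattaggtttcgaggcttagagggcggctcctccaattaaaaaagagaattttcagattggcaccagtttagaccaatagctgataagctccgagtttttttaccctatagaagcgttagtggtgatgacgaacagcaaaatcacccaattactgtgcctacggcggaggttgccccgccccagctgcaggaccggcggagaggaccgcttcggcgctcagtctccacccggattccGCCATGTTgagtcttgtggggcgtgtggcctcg
Cox7a1: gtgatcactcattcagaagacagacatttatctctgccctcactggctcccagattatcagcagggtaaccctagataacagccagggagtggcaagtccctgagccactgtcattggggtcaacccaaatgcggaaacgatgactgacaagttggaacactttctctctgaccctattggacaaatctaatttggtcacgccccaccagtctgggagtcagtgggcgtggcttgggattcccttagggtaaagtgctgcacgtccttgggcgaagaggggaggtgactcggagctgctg
Atp5s: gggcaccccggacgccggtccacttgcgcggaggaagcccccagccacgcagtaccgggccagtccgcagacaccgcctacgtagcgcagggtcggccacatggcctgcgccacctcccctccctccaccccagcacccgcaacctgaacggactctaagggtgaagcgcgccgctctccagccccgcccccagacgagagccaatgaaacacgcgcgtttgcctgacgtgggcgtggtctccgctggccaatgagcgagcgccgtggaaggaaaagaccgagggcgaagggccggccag

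Sdha carried 3 NRF1 matches, beginning at -98, -55 and -10 relative to the start, and Ndufb4 carried 3 at -191, -79 and -22. Uqcrc1 carried 2 just after the start, at positions 6 and 31, and Atp5b carried a YY1 match on the minus strand at position 18. The windows of Cox7a1, the member with the largest rise, and of Atp5s, the member with the smallest p for a rhythm difference, held none of these motifs. RefSeq windows were matched for 68 of the 83 nuclear members. An NRF1 match was present in 19 of them (27.9%), against 11.6% of the 14822 genes of the table with a window. A YY1 match was present in 17 (25%) against 8.32%, and an ETS match in 5 (7.35%) against 6.95%. The median GC content was 57.8% in members and 58.7% in all genes, and a match describes the letters only. Among the 39 members with any of the 3 motifs, 18 were higher in DRF in mean level (limma, 11.4% of all genes), as were 13 of the 29 without, and the median log2 difference was 0.15 in both sets.

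Levels per length differed by orders of magnitude between members. In FPKM (recovered reads per kilobase of exon and M, mean ± SD over 56 libraries), the highest nuclear members were the complex IV subunits Cox8a (1056 ± 170) and Cox6a1 (766 ± 146), followed by Atp5b, the catalytic beta subunit of ATP synthase (555 ± 109). The lowest were Ndufb2 (1.36 ± 0.221) and the tissue-restricted complex IV isoforms Cox6a2 (1.54 ± 1.93), Cox6b2 (2.86 ± 0.783) and Cox4i2 (3.82 ± 1.01). Their ubiquitous partners stood far above them, with Cox6b1 at 369 ± 66.9 and Cox4i1 at 418 ± 69.1 FPKM. Cox8b, the isoform of heart, muscle and brown fat, reached 103 ± 31.2 FPKM. Among the mitochondrial members, mt-Co1 was highest at 15031 ± 2582 FPKM and mt-Cytb followed at 8969 ± 1703 FPKM.

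**Figure D1:**
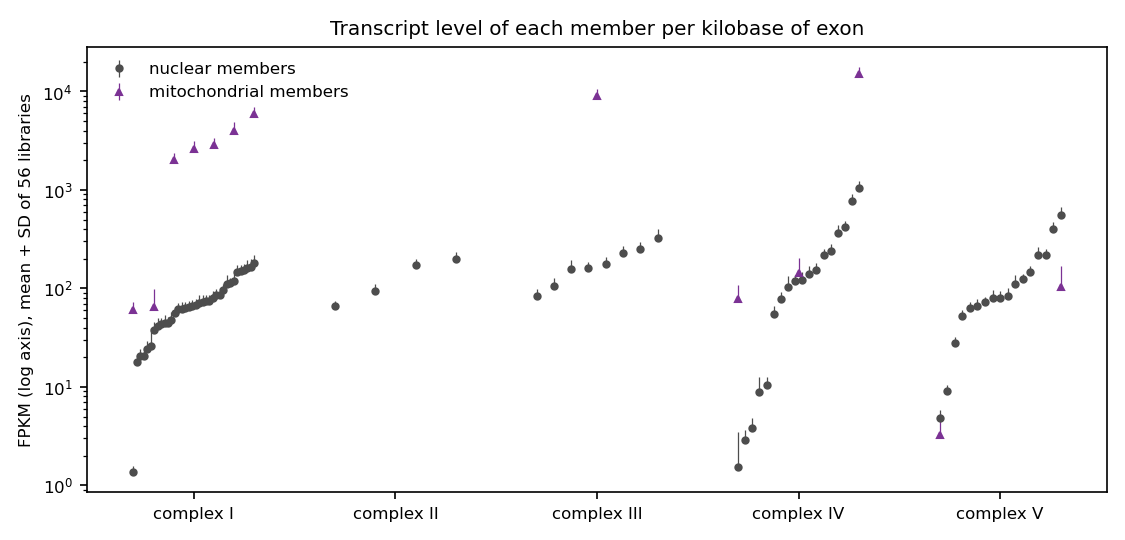
Level of each of the 96 members per length (FPKM, log axis), by complex and genome, as the mean of 56 libraries with an upward bar of 1 SD. mt-Co1 (15031 FPKM) stands at the top of complex IV and Cox6a2 (1.54 FPKM) near the bottom of the same complex.

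Mean level over the day was compared between regimens to ask whether inverted feeding moves the whole set or single subunits. Of the 83 nuclear members, 39 were higher in DRF and 1, Cox6b2, was lower (limma, adjusted p under 0.05), where 11.4% of all genes tested were higher and 10.3% lower. Of the 13 mitochondrial members, mt-Nd1, mt-Nd2 and mt-Co2 were higher. The median log2 difference was 0.15 over nuclear members, a 1.11-fold rise with 69 of 83 above 0, and 0.22 over mitochondrial members, with 13 of 13 above 0. It was -0.0004 over all genes. The differences were small and widely shared. A total of 12 nuclear members had a higher DRF mean at all 7 time points, among them Ndufa10, Ndufv1, Sdhb, Uqcrc1, Uqcrfs1, Cox7a1 and Atp5b, and 36 more did so at 6. The share of all genes with this pattern was not counted, so these counts have no background to be read against. No filter on low values was used, so all members were tested, and Cox6a2 and mt-Atp8 averaged under 1 CPM in DRF. Without the 2 DRF libraries that stand apart, 56 nuclear and 6 mitochondrial members were called. The shares of all genes above belong to the fit with every library and do not apply to these counts.

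**Figure D2:**
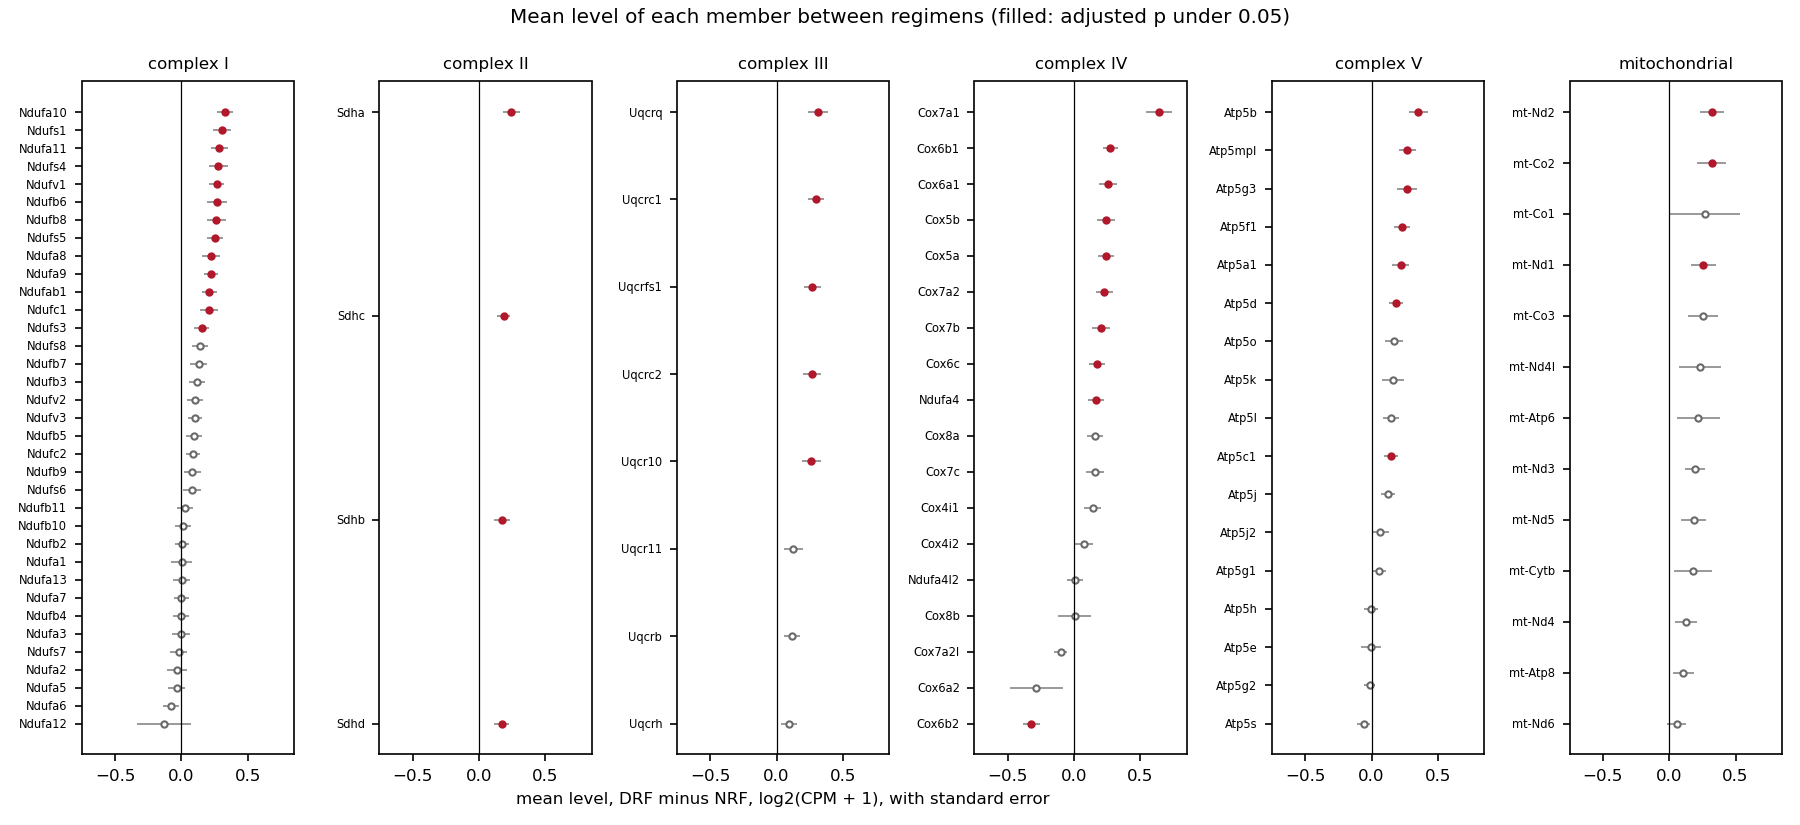
Difference in mean level between DRF and NRF for the members shown (log2, DRF minus NRF, ± SE from limma), by complex and genome, with filled points for adjusted p under 0.05. Most points lie right of 0, Cox7a1 is farthest right at 0.64, and Cox6b2 is the filled point on the left at -0.32.

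In complex I, 14 of 36 nuclear members were higher and the median difference was 0.10. Ndufa10, an accessory subunit of the membrane arm, had the smallest p of the complex. Its DRF libraries ran from 138 through a median of 270 to 347 CPM, and its NRF libraries from 159 through 208 to 263 CPM. The ranges overlapped, yet the DRF median lay above the highest NRF library, and the lowest DRF value was that of ZT8 replicate 1. The difference was 0.33 ± 0.06 (SE, log2, 28 libraries per regimen, limma adjusted p = 3.22e-05), a 1.26-fold rise. Ndufv1, which binds the flavin that accepts electrons from NADH, ran from 121 through 230 to 287 CPM in DRF and from 152 through 184 to 218 CPM in NRF. Its median also exceeded every NRF library, with a difference of 0.26 ± 0.06 (limma adjusted p = 0.000302).

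All 4 subunits of complex II, succinate dehydrogenase, were higher in DRF, with a median difference of 0.18. Sdha, the flavoprotein that oxidises succinate, ran from 493 through 931 to 1176 CPM in DRF and from 543 through 743 to 897 CPM in NRF. Its DRF median stood above the highest NRF library, and the difference was 0.24 ± 0.06 (limma adjusted p = 0.00348). The iron-sulfur subunit Sdhb (0.17 ± 0.06, adjusted p = 0.0236) and the membrane anchors Sdhc (0.18 ± 0.05, adjusted p = 0.0055) and Sdhd (0.17 ± 0.06, adjusted p = 0.0218) rose by less. Sdhb and Sdhd lost their calls when ZT24 was left out, at adjusted p = 0.131 and 0.0551. When each of the 4 replicate numbers was left out, the call was lost in 3 fits for Sdhd, 2 for Sdhb, 1 for Sdhc and 0 for Sdha.

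In complex III, 5 of 8 nuclear members were higher, with the largest median of the complexes, 0.26. Uqcrc1, a core protein of the complex, ran from 215 through 391 to 526 CPM in DRF and from 227 through 305 to 379 CPM in NRF, a difference of 0.30 ± 0.06 (limma adjusted p = 0.000198). Uqcrfs1, the Rieske iron-sulfur protein, ran from 181 through 349 to 473 CPM in DRF and from 215 through 279 to 343 CPM in NRF (0.27 ± 0.06, adjusted p = 0.0014). In both genes the DRF median lay above every NRF library. The small subunit Uqcr10 rose by 0.26 ± 0.07 (adjusted p = 0.00534), and its call was lost without replicate 2 of every group (0.0705).

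Complex IV, cytochrome c oxidase, held both the largest rise and the only called fall among nuclear members, and both were in isoforms of low level. Of 18 nuclear members, 9 were higher and 1 lower, with a median of 0.16. Cox7a1, the heart and muscle form of subunit 7a that is also high in brown fat (chr7:30184144-30186078, plus strand), ran from 2.39 through 5.95 to 10.6 CPM in DRF and from 1.48 through 3.28 to 7.77 CPM in NRF. The ranges overlapped, and the difference was 0.64 ± 0.10 (limma adjusted p = 3.54e-06), or 1.56-fold on the log2(CPM + 1) scale, which understates changes at such levels. Its widely expressed counterpart Cox7a2 rose by less, 0.23 ± 0.07 (adjusted p = 0.00898; 0.06 without ZT24), and Cox7a2l, which helps join complexes III and IV, had a difference of -0.10 ± 0.05 that missed the threshold (adjusted p = 0.154). The difference between Cox7a1 and Cox7a2 in their response was not tested.

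Cox6b2, a testis-type isoform of subunit 6b (chr7:4751792-4753094, minus strand), ran from 1.46 through 2.93 to 3.58 CPM in DRF and from 2.06 through 3.59 to 6.83 CPM in NRF. The NRF median thus lay at the top of the DRF range, and the gene fell by 0.32 ± 0.06 on the log2 scale (limma adjusted p = 0.000143). Its ubiquitous counterpart Cox6b1 rose by 0.27 ± 0.06 (adjusted p = 0.000261), from 150 through 293 to 360 CPM in DRF against 186 through 233 to 312 CPM in NRF. Cox6a1 rose by 0.26 ± 0.07 (adjusted p = 0.00374; 0.077 without replicate 2 of every group). Its muscle isoform Cox6a2 was at 0 to 3.72 CPM in DRF and 0.0496 to 6.35 CPM in NRF. Neither form of subunit 4 passed, with Cox4i1 at 0.14 ± 0.06 (adjusted p = 0.108) and Cox4i2, the hypoxia-responsive form, at 0.07 ± 0.06 (adjusted p = 0.465). Cox8a missed narrowly (0.16 ± 0.06, adjusted p = 0.0518), passing in 13 of the 56 fits without 1 library, and Cox8b stood at 0.00 ± 0.12 (adjusted p = 0.985). Ndufa4 passed narrowly (0.16 ± 0.06, adjusted p = 0.0468; 0.193 without ZT24), failing in 35 of those 56 fits, and its paralogue Ndufa4l2 did not (0.01 ± 0.06, adjusted p = 0.954).

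In ATP synthase, 7 of 17 nuclear members were higher, with a median of 0.15. Atp5b (chr10:128083273-128090391, plus strand) ran from 1409 through 2767 to 3522 CPM in DRF and from 1498 through 2050 to 2439 CPM in NRF. It rose by 0.35 ± 0.07 (limma adjusted p = 0.000163), the second largest difference among nuclear members, and its DRF median again exceeded every NRF library. Atp5mpl, a small membrane subunit, rose by 0.27 ± 0.06 (adjusted p = 0.00142). The 3 genes for the same mature c-ring subunit are listed with different outcomes. Atp5g3, the most abundant at 216 ± 47.4 FPKM, rose by 0.26 ± 0.07 (adjusted p = 0.00646), while Atp5g2 (-0.01 ± 0.04, adjusted p = 0.874) and Atp5g1 (0.06 ± 0.05, adjusted p = 0.504) did not pass. The differences among these genes were not themselves tested, and reads shared with processed pseudogenes could affect them, since how shared reads were counted is not given in the sources used here.

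Markers of several cell types were called in mean level (limma), where 11.4% of all genes were higher in DRF and 10.3% lower. All 5 red cell genes were higher in DRF, with summed medians of 476 CPM (209 to 859) against 274 CPM (176 to 746) in NRF. Of the adipocyte list, Lep was higher and Adipoq and Cfd lower. Of the macrophage and mesothelium markers, 3 of 6 and 3 of 5 were lower. Of 6 lymphocyte markers Trac was higher and Cd3g lower, and of 4 endothelium markers Tek was lower. The endothelium sums did not follow Tek, with medians of 718 CPM in DRF and 682 CPM in NRF. The skeletal muscle sums overlapped, at 6.05 to 453 CPM in DRF and 10.9 to 586 CPM in NRF, with none of 6 markers called (limma), and Ckm, Myh4, Tnnt3 and Atp2a1 had medians under 1 CPM. Of 5 brown adipocyte markers Elovl3 was higher, and the sums overlapped, with a median of 50.7 and a maximum of 108 CPM in DRF and 39.0 and 110 CPM in NRF. The part of these cell types in the members' differences was not tested.

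The mitochondrial members need a caution on counting before their values are read. A stretch of chromosome 1 (chr1:24611535-24616197, minus strand, GRCm38) holds a nearly exact nuclear copy of part of the mitochondrial DNA, with 7 annotated copies. The copies match mt-Co2, mt-Co3, mt-Atp6, mt-Nd3 and mt-Nd4l at 100% identity over 98.3% to 99.9% of the gene. The opening bases of mt-Co2 (chrM:7013-7072, plus strand) and of its copy Gm28661 (chr1:24615506-24615565, minus strand) are shown because reads from them cannot be assigned to either place.
mt-Co2: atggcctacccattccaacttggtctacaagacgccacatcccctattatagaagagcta
Gm28661: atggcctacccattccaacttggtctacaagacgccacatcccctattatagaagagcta

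The 2 sequences of 60 bases are identical. The genes with such a full copy were listed with few reads, with a median of 3422 per library for mt-Co2, 2254.5 for mt-Atp6 and 2098.5 for mt-Co3, whereas mt-Co1, copied over 31.3% of its length, had 870920. Gm28661 itself had a median of 2704 reads. Levels of the 8 members that overlap the stretch are therefore uncertain, and mt-Nd1, mt-Nd2, mt-Nd5, mt-Nd6 and mt-Cytb have no copy there. The library kit was not stated to keep strand, so reads of mt-Nd6, on the opposite strand from its neighbours, cannot be told from antisense reads.

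Among the 5 mitochondrial members with no copy, mt-Nd2 and mt-Nd1, both membrane subunits of complex I, were higher in DRF. The mt-Nd2 libraries ran from 2742 through 4544 to 6440 CPM in DRF and from 2452 through 3728 to 4430 CPM in NRF. The DRF median lay above every NRF library, with a difference of 0.32 ± 0.09 (limma adjusted p = 0.00523). The mt-Nd1 libraries ran from 3668 through 6068 to 7965 CPM in DRF and from 3790 through 5183 to 6557 CPM in NRF (0.26 ± 0.10, adjusted p = 0.0455), and this call was lost at a pseudocount of 5 CPM (adjusted p = 0.0517) and in 33 of the 56 fits without 1 library. When each of the 4 replicate numbers was left out, the call was lost in 4 fits for mt-Nd1, 2 for mt-Nd2 and 2 for mt-Co2. The rest, mt-Nd5 (0.18 ± 0.09, adjusted p = 0.157), mt-Nd6 (0.06 ± 0.07, adjusted p = 0.65) and mt-Cytb (0.18 ± 0.14, adjusted p = 0.426), did not pass. The uncertain mt-Co2 was at 0.32 ± 0.11 (adjusted p = 0.0247). Without ZT24, neither mt-Nd1 (adjusted p = 0.124) nor mt-Co2 (adjusted p = 0.0551) was called.

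The largest mitochondrial gene by level, mt-Co1, the catalytic core of complex IV, ran from 14382 through 25378 to 34058 CPM in DRF and from 14689 through 20920 to 24574 CPM in NRF. Its DRF median exceeded every NRF library, and the difference was 0.27, as large as in many called members. It was not called in limma (± 0.26, adjusted p = 0.538, cosine fit). The spread used for each gene was compared with its own in the other fit, that of group means. There the spread assigned to mt-Co1 with the intensity trend, 1.09 log2 units, was 5.97 times its own spread within groups, 0.182. For mt-Cytb the ratio was 2.50 and for mt-Nd1 1.89, against 1.28 for Atp5b. With limma-voom, the adjusted p of mt-Co1 was 8.72e-05, and with genes under 1 CPM left out it was 0.0102. Each of these alternatives called 6 mitochondrial members.

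As a share of recovered reads, the 13 mitochondrial members took 4.60% to 7.88% in DRF (median 5.98%, mean 6.08% ± 0.889 SD, n = 28) and 3.88% to 6.12% in NRF (median 5.30%, mean 5.30% ± 0.525, n = 28). The 83 nuclear members took 1.98% ± 0.206 in DRF and 1.77% ± 0.138 in NRF. The upper DRF shares had no counterpart in NRF. At ZT20 the mitochondrial share was 6.38%, 7.51%, 7.16% and 6.62% in the DRF mice and 5.29%, 4.92%, 3.88% and 5.31% in the NRF mice. At ZT24 it was 7.88%, 6.19%, 6.29% and 7.47% in DRF and 5.97%, 5.11%, 5.28% and 6.01% in NRF. The groups did not overlap at either time. At ZT4 the order was turned, with means of 5.20% ± 0.426 in DRF and 5.68% ± 0.138 in NRF (n = 4 each), and the groups differed by about their spread.

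**Figure D3:**
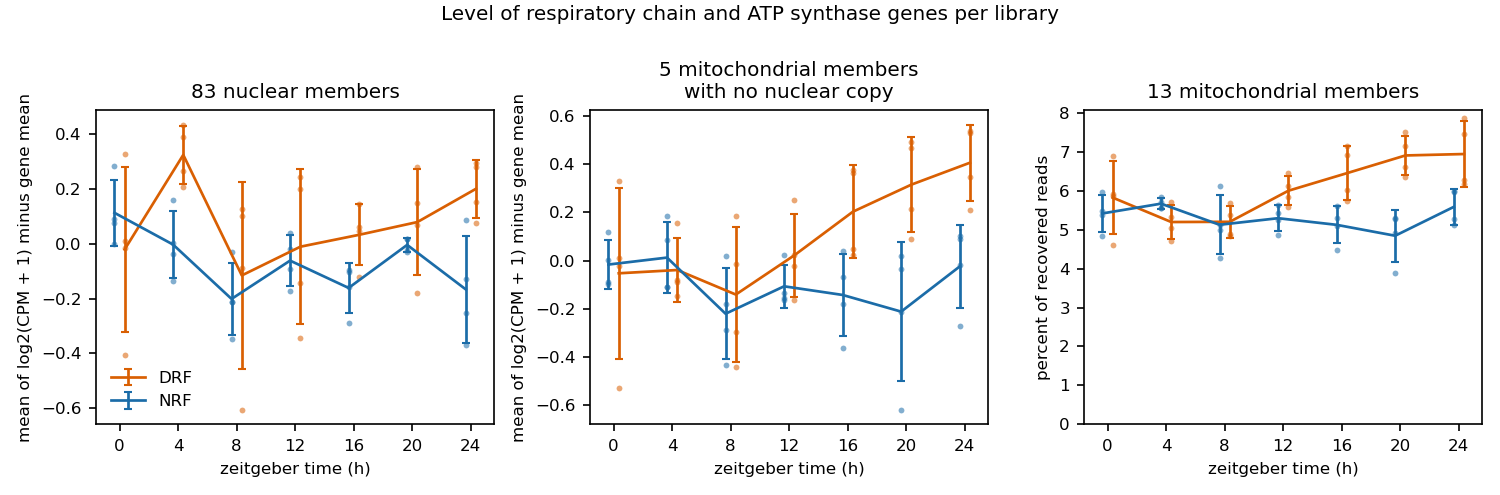
Level by zeitgeber time of the 83 nuclear members and of the 5 mitochondrial members with no nuclear copy (mean log2(CPM + 1) relative to each gene's mean over all libraries), and percent of recovered reads on the 13 mitochondrial members; points are libraries and lines are group means ± SD (n = 4). The DRF mean of the nuclear level lies above the NRF mean at all times but ZT0, by most at ZT4 and ZT24. In both mitochondrial panels the gap is widest from ZT16 to ZT24 and is turned at ZT4. In the panel of the 5 mitochondrial members it is also slightly turned at ZT0.

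The levels of nuclear and of mitochondrial members are given side by side over the day. The level of the nuclear members, the mean of log2(CPM + 1) relative to each gene's mean over all libraries, was highest in DRF at ZT4, at 0.27, 0.21, 0.39 and 0.43 in the 4 mice, against -0.04, 0.16, 0.00 and -0.14 in NRF. Every DRF mouse stood above every NRF mouse there. The same level of the 5 mitochondrial members with no copy was not raised at ZT4, with means of -0.04 in DRF and 0.01 in NRF. It reached 0.20 at ZT16, 0.31 at ZT20 and 0.41 at ZT24 in DRF, while NRF had -0.14, -0.21 and -0.02. No test was run on these averages over members, and the single genes follow.

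At ZT4, in the daytime when DRF mice have food, 34 of 83 nuclear members were higher in DRF and 0 lower (limma), where 10.4% of all genes were higher and 9.04% lower. They comprised 12 of 36 members of complex I, 4 of 4 of complex II, 5 of 8 of complex III, 7 of 18 of complex IV and 6 of 17 of ATP synthase, and the median over nuclear members was 0.33. No mitochondrial member was called, 0 of 13 also at an unadjusted p under 0.05 (30.6% of all genes) and 0 by limma-voom, and their median was -0.10. In 40 nuclear members every DRF library lay above every NRF library, against 12.2% of all genes, and mt-Nd1 was the mitochondrial member to do so. With scaling by total recovered reads, 24 nuclear members were higher and 2 lower at ZT4, and the median was 0.15. Left out in turn, single libraries moved the count between 18, without DRF ZT4 replicate 4, and 38, and without replicate 4 of every group it was 7.

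The called nuclear members at ZT4 differed by 0.34 to 0.90. Cox7a1 was largest, at 6.37, 6.26, 5.79 and 10.6 CPM in DRF and 3.06, 3.75, 2.33 and 4.41 CPM in NRF. The groups did not overlap, with 1 DRF mouse far above the others, and the difference was 0.90 ± 0.25 (limma adjusted p = 0.00714). Atp5g3 followed at 0.71 (adjusted p = 0.00264). Uqcrfs1 was at 424, 361, 440 and 473 CPM in DRF and 275, 302, 260 and 242 CPM in NRF, a clean separation of 0.65 ± 0.14 (adjusted p = 0.000907). Ndufa10 was at 308, 286, 336 and 347 CPM against 220, 209, 200 and 198 CPM, again without overlap (0.62 ± 0.13, adjusted p = 0.000593). Sdha was at 1062, 967, 1176 and 1132 CPM against 743, 789, 690 and 652 CPM (0.59 ± 0.14, adjusted p = 0.00219), and Atp5b at 2967, 2845, 3256 and 3522 CPM against 2177, 2173, 2005 and 1929 CPM (0.60 ± 0.17, adjusted p = 0.00974). In mt-Nd2, by contrast, the DRF mice at 4336, 3810, 3729 and 3739 CPM lay within the NRF range of 3376 to 4430 CPM (0.01 ± 0.23, adjusted p = 0.987). At this time point the 5 red cell genes were also all higher in DRF, as were 2 of 8 adipocyte, 1 of 5 brown adipocyte, 1 of 6 lymphocyte and 1 of 4 endothelial markers. Lower in DRF were 3 of 6 macrophage markers, 1 of 5 mesothelium markers and 1 adipocyte marker. The shares of all genes at ZT4 were 10.4% higher and 9.04% lower. The part of these cell types in the result was not tested.

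**Figure D4:**
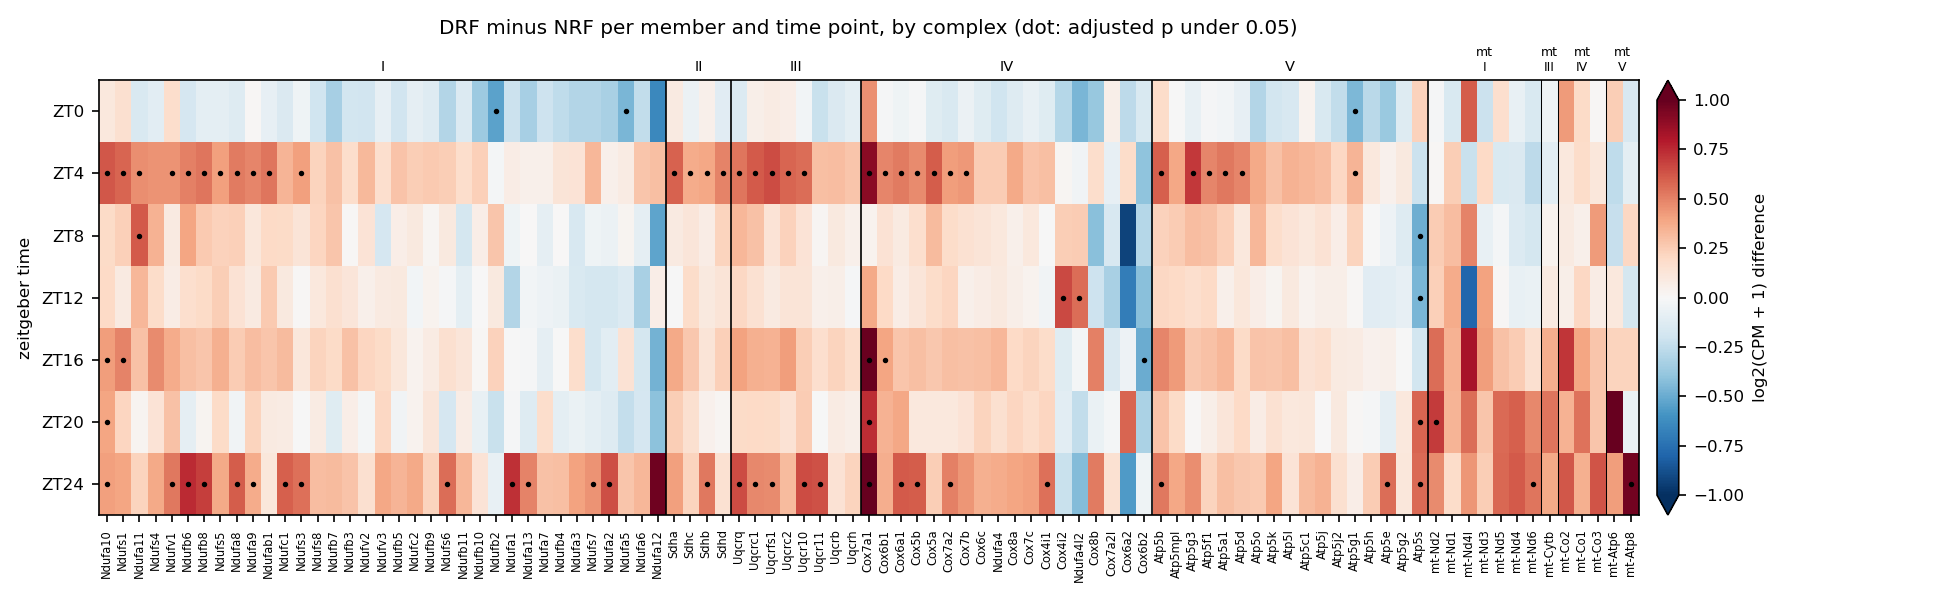
Difference between DRF and NRF for the members shown at each zeitgeber time (log2, DRF minus NRF, colours limited to ± 1), grouped by complex and genome, with a dot where the limma adjusted p was under 0.05. Dots of nuclear members gather at ZT4 and ZT24. Differences of mitochondrial members lie mostly above 0 from ZT16 to ZT24, where few of them carry a dot.

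Between ZT8 and ZT20 few nuclear members were called. At ZT8, Ndufa11 was higher, with a difference of 0.61, and Atp5s lower (8.99% of all genes higher, 7.47% lower). Without DRF ZT8 replicate 1 and DRF ZT0 replicate 4, the ZT8 count rose from 2 to 27, so that time point depends on a single library: leaving out DRF ZT8 replicate 1 alone gave 18. The shares of all genes at ZT8 are those of the fit with every library. At ZT12, Cox4i2 and Ndufa4l2 were higher and Atp5s lower (8.76% and 7.38%). At ZT16, Cox7a1, Ndufs1, Ndufa10 and Cox6b1 were higher and Cox6b2 lower (5.00% and 4.97%), and the medians were 0.22 over nuclear and 0.35 over mitochondrial members. Leaving out single libraries moved the ZT16 count from 5 to between 1, without DRF ZT16 replicate 2, and 12, without DRF ZT8 replicate 1.

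The ZT16 groups were tight in several genes. Cox7a1 was at 6.12, 5.78, 6.79 and 5.23 CPM in DRF and 2.30, 2.24, 3.21 and 2.35 CPM in NRF, with all DRF mice higher (0.99 ± 0.25, limma adjusted p = 0.00605). Cox6b2 was at 2.49, 1.90, 2.04 and 2.97 CPM in DRF and 4.06, 3.34, 3.91 and 3.50 CPM in NRF, with all DRF mice lower (-0.50 ± 0.16, adjusted p = 0.0454). Cox6b1 was at 290, 280, 255 and 296 CPM against 186, 221, 232 and 214 CPM (0.39 ± 0.13, adjusted p = 0.0484). In 29 nuclear and 6 mitochondrial members every DRF library lay above every NRF library at ZT16, against 9.98% of all genes, and mt-Co1 was among them at 29116, 26149, 29461 and 25877 CPM against 19074, 19564, 22672 and 22994 CPM.

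At ZT20 the mitochondrial members had the larger differences. Their median was 0.54, against 0.08 for nuclear members. In 6 of the 13 mitochondrial but 4 of the 83 nuclear members all DRF libraries lay above all NRF libraries, where 9.60% of all genes did. The called members were mt-Nd2, Ndufa10, Cox7a1 and Atp5s, all higher (6.71% of all genes). The mt-Nd2 values were 4520, 6425, 6440 and 5313 CPM in DRF and 3922, 3408, 2487 and 4293 CPM in NRF, a separation of 0.70 ± 0.23 (limma adjusted p = 0.0372). The mt-Co1 values, at 24256, 34058, 30599 and 27520 CPM against 20011, 21640, 17931 and 19983 CPM, separated as well but were not called (0.54 ± 0.77, adjusted p = 0.764). Limma-voom called 6 mitochondrial members at ZT20. Single libraries moved the count of 4 to between 1, without NRF ZT20 replicate 2, and 8, without DRF ZT8 replicate 1.

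At ZT24 the median differences of both genomes lay above 0. Of 83 nuclear members 28 were higher and none lower (limma, 6.09% and 5.24% of all genes), with a median of 0.38, and mt-Nd6 and mt-Atp8 were called among mitochondrial members, with a median of 0.47. The count of 30 fell to 3 without replicate 2 of every group, to 20 without NRF ZT24 replicate 2 alone, and to 6 on log2(deposited value + 1). Cox7a1 had the largest difference, at 9.55, 7.39, 5.28 and 8.38 CPM in DRF and 2.25, 2.71, 3.46 and 2.18 CPM in NRF. Every DRF mouse lay above every NRF mouse (1.23 ± 0.25, adjusted p = 0.000621, 2.35-fold). Uqcrc1 was at 367, 401, 372 and 420 CPM against 257, 247, 312 and 305 CPM (0.48 ± 0.14, adjusted p = 0.015). The mt-Nd6 values were 1590, 1209, 1455 and 1428 CPM against 1149, 807, 971 and 1012 CPM, without overlap (0.53 ± 0.17, adjusted p = 0.0346), while mt-Atp8 stayed at 0.975 to 2.56 CPM against 0.175 to 0.471 CPM and overlaps mt-Atp6 and the copied stretch. Of the adipocyte markers, 4 of 8 were higher in DRF at ZT24, as were 3 of 5 red cell genes, and 1 of 6 macrophage markers was lower. No brown adipocyte marker was called there, but their sums were 87.9, 65.9, 16.5 and 102 CPM in DRF and 31.7, 45.6, 27.9 and 18.0 CPM in NRF, and the DRF mouse with the lowest sum was also the lowest in Cox7a1. The skeletal muscle sums had medians of 93.4 CPM in DRF and 45.3 CPM in NRF, with ranges that overlapped and no marker called. The part of these cell types was not tested.

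ZT0, the same clock hour, did not show this. There Ndufa5, Ndufb2 and Atp5g1 were lower in DRF and none was higher (limma, 5.06% and 5.41% of all genes), and the nuclear median was -0.13. Atp5g1 was at 39.2, 37.7, 49.6 and 34.7 CPM in DRF and 53.8, 53.4, 54.2 and 58.6 CPM in NRF, with every DRF mouse lower (-0.45 ± 0.12, adjusted p = 0.00791). The comparison of ZT24 with ZT0 was added after these values were seen. Under DRF the median nuclear difference, ZT24 minus ZT0, was 0.22, and under NRF it was -0.27. No member passed within DRF (0.0501% of all genes), within NRF (0.154%) or for the difference between regimens (0.0116%) in limma, nor in limma-voom, while 5, 34 and 50 nuclear members had an unadjusted p under 0.05, where 10.2%, 8.42% and 11.3% of all genes did. These counts of 0 moved with single choices. Leaving out replicate 3 of every group gave 1, 9 and 15 members, leaving out DRF ZT0 replicate 3 alone gave 7 for the difference between regimens, scaling by total recovered reads gave 7 under NRF, and the replicate block gave 1 for the difference. ZT0 and ZT24 were collected from different mice, and whether the day of collection differed is not given in the sources used here.

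Rhythms were compared next, because the clock of a tissue that follows food would move by 12 h under DRF. Few members were rhythmic. Under NRF the combined JTK_CYCLE and Lomb-Scargle test called Ndufab1, Ndufb2, Ndufa4l2, Atp5s and mt-Nd1 (26.8% of all genes). Under DRF it called Cox4i2, Atp5s, mt-Nd2 and mt-Nd4 (15.0%), and under both regimens Atp5s was the dual-oscillating member (9.29%). Without ZT24, the calls went to 15 under NRF and 0 under DRF. A rhythm that differed between regimens at the same ZT was called in 5 nuclear and 2 mitochondrial members in limma, where 36.0% of all genes were called. These were Atp5s, Ndufa4l2, Cox4i2, Ndufb2, Ndufa11, mt-Nd4 and mt-Nd6.

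Atp5s, a coupling factor gene of ATP synthase that is not part of its catalytic core (chr12:69724950-69744660, plus strand), had the clearest rhythm. Under NRF it was high at ZT4, at 11.8, 13.4, 13.6 and 11.2 CPM, and low at ZT20, at 6.48, 6.05, 6.20 and 7.52 CPM. Under DRF it was low at ZT12, at 8.81, 8.56, 7.09 and 7.90 CPM, and high at ZT24, at 11.7, 13.6, 12.8 and 12.7 CPM. The peak of the fitted cosine lay at ZT7.9 ± 0.5 h (SE) under NRF and ZT0.1 ± 0.7 h under DRF, with amplitudes of 0.37 and 0.28 log2 units. The rhythms differed at the same ZT (limma adjusted p = 2.09e-09) and also after DRF time was moved by 12 h (adjusted p = 0.00123). DRF was lower at ZT8 (-0.49) and ZT12 (-0.46) and higher at ZT20 (0.58) and ZT24 (0.57), while its mean level did not pass (-0.06 ± 0.05, adjusted p = 0.406).

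Ndufa4l2 and Cox4i2 of complex IV and Ndufb2, an accessory subunit of complex I, had their fitted peaks late in the light phase under DRF. Ndufa4l2, a hypoxia-induced paralogue of Ndufa4, peaked at ZT22.7 ± 1.2 h under NRF and ZT10.9 ± 1.0 h under DRF (limma adjusted p = 5.94e-05). At ZT12 it was at 14.2, 14.1, 15.8 and 13.6 CPM in DRF and 12.0, 7.75, 9.88 and 8.68 CPM in NRF, with no overlap (0.56 ± 0.17, adjusted p = 0.0179). Cox4i2, also linked to low oxygen, had an amplitude of 0.30 under DRF with a peak at ZT10.5 ± 0.8 h, and of 0.06 under NRF (rhythm difference, adjusted p = 0.00202). At ZT12 it was at 5.60, 4.37, 4.64 and 4.69 CPM in DRF against 2.89, 2.30, 2.82 and 2.71 CPM in NRF. Ndufb2 had fitted peaks at ZT22.8 ± 1.2 h under NRF and ZT11.3 ± 1.9 h under DRF (rhythm difference, adjusted p = 0.00322). Of the mitochondrial pair, mt-Nd4 peaked at ZT20.0 ± 0.8 h under DRF with an amplitude of 0.29, against 0.08 under NRF (adjusted p = 0.0396), and mt-Nd6 at ZT20.4 ± 1.4 h against ZT6.5 ± 1.5 h (adjusted p = 0.0254). In the rhythm test per regimen, Ndufa4l2 and Ndufb2 were called only under NRF, Cox4i2 and mt-Nd4 only under DRF, and mt-Nd6 under neither. Peak times without a called rhythm are uncertain, so these pairs of peaks are not read as shifts of a rhythm. Several of the calls of a rhythm difference did not hold in every alternative. The Cox4i2 call was lost without replicate 2 or 4 of every group (limma adjusted p = 0.0585 and 0.0556), and the Ndufb2 call without replicate 4 (0.0672) and without ZT0 and ZT24 (0.107). The mt-Nd4 call was lost without ZT24 (0.117) and without any 1 replicate number (0.0985 to 0.24), and the mt-Nd6 call without replicate 2 (0.154) or 3 (0.114). Single libraries also ended the mitochondrial calls, as NRF ZT20 replicate 3 did for mt-Nd4 (0.0838) and mt-Nd6 (0.0599).

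After DRF time was moved by 12 h, so that libraries were compared at equal time since food, rhythms differed in 10 nuclear and 0 mitochondrial members (limma, 14.9% of all genes). At an unadjusted p under 0.05 there were 28 and 1 (28.5% of all genes), and limma-voom called 10 and 2. Besides Atp5s these were Ndufab1, Ndufv3, Uqcrb, Uqcr11, Cox6b1, Cox7c, Atp5g1, Atp5k and Atp5mpl. The called share of nuclear members lay near that of all genes and is not read as a trait of the members. Fitted peaks of the genes other than Atp5s lay in the hours around lights on under both regimens. Examples were ZT1.4 and ZT1.0 for Cox7c and ZT0.2 and ZT0.4 for Atp5mpl. Of these genes, Ndufab1 alone was called rhythmic, and only under NRF, so most of these peak times come from fits without a called rhythm. The count was 25 without the pair that stands apart, 23 without DRF ZT0 replicate 4 alone, 5 without DRF ZT12 replicate 3 and 24 with scaling by total recovered reads. It fell to 1 without replicate 2 of every group, and to 1 on log2(deposited value + 1). No member differed in amplitude by the adjusted p (Wald test on the fitted cosines, 2.26% of all genes), nor on the limma-voom fit. By the same Wald test, 1 nuclear and 4 mitochondrial members had an unadjusted p under 0.05 (12.0% of all genes).

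**Figure D5:**
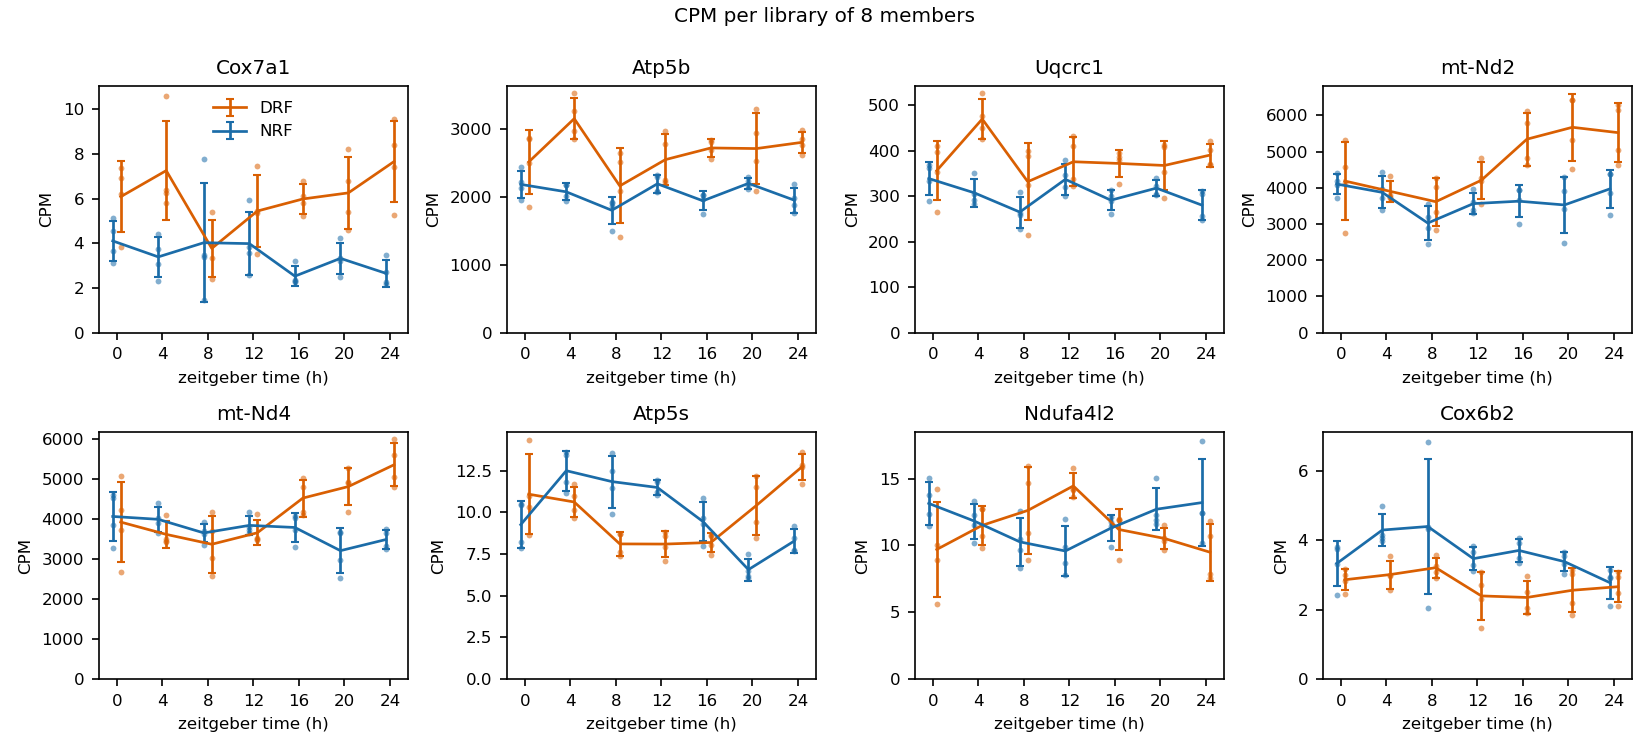
CPM by zeitgeber time of Cox7a1, Atp5b, Uqcrc1, mt-Nd2, mt-Nd4, Atp5s, Ndufa4l2 and Cox6b2; points are libraries and lines are group means ± SD (n = 4 mice). Cox7a1 stands above NRF at most times, Atp5s peaks at ZT4 under NRF and at ZT24 under DRF, and mt-Nd2 separates from ZT16 on.

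Genes of the wider pathway were counted by lists. Of all genes, 11.4% were higher and 10.3% lower in DRF in mean level, 10.4% higher and 9.04% lower at ZT4, and 6.09% higher at ZT24. Of 13 genes of the TCA cycle, which feeds NADH and succinate to the chain, 11 were higher in DRF in mean level and none lower (limma), with a median of 0.28, and 12 were higher at ZT4, with a median of 0.54. Cs, citrate synthase, was at 0.47 ± 0.08 (adjusted p = 3.35e-05) in mean level and 0.83 at ZT4. Mdh2, mitochondrial malate dehydrogenase, was at 0.35 ± 0.06 (adjusted p = 1.93e-05). Ogdh and Suclg2 were not called. Of 45 assembly factors, 19 were higher and Ndufaf8 lower, with 17 higher at ZT4 and 1 at ZT24, the last below the share of all genes. Of 13 mobile carriers and electron inputs, 6 were higher, among them Cycs, cytochrome c, at 0.34 ± 0.09 (adjusted p = 0.00365). Of these carriers and inputs, 5 were higher at ZT4 and 6 at ZT24, and 5 of the 13 TCA cycle genes were higher at ZT24.

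The genes that transcribe and replicate mitochondrial DNA, and the regulators classically tied to respiratory genes, were called in mean level at shares near those of all genes (11.4% higher and 10.3% lower). Of 16 genes of mitochondrial transcription and replication, Tfb2m and Mterf2 were higher and Polg2 lower, and the median was -0.01. Tfam, which packages and activates mitochondrial DNA, had a difference of -0.04 (limma adjusted p = 0.285) and Polrmt, its RNA polymerase, one of 0.08 (adjusted p = 0.223). Of 10 regulators, Myc was lower and none higher in mean level. The coactivator Ppargc1a was at -0.10 (adjusted p = 0.38) and Nrf1 at -0.08 (adjusted p = 0.155). At ZT4, Esrra, the orphan receptor that binds many respiratory promoters, was higher by 1.03 (adjusted p = 2.41e-06), and Ppara (-0.70) and Myc (-0.78) were lower. At ZT24, Ppara (0.91) and Esrra (0.46) were higher and Pprc1 (-0.69) and Gabpb1 (-0.32) lower (limma, 6.09% and 5.24% of all genes). The rhythm at the same ZT differed in 13 of 16 transcription and replication genes and 7 of 10 regulators. It differed in 20 of 45 assembly factors, 5 of 13 carriers and electron inputs and 1 of 13 TCA cycle genes. The share of all genes was 36.0%, and the differences between lists were not tested.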

How the data were processed

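The authors sequenced polyadenylated VAT RNA (56 libraries, each from 1 mouse) and, per the submitters' processing notes, used HISAT2 2.0.5, featureCounts 1.5.0-p3 and mm10. Regimen, ZT and replicate come from the sample labels, and p-values measure the spread between mice. The deposited score, named TPM, is by its values log2(CPM + 1) divided by exon length and rescaled per library. Reads were recovered with GENCODE exon lengths on GRCm38: 99.9996% of 1279659 values lay within 0.02 of a whole number, 878 gene lengths were taken from the values, and reads of Pcx and Scd1 were not recovered. CPM uses the authors' effective library size.

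limma 3.58.1 (R 4.3.3) with an intensity trend was fitted to log2(CPM + 1) of 25937 genes without a filter, with a pseudocount of 1 CPM, which understates changes of low genes. One fit held a 24-h cosine and sine per regimen, the other 14 group means. Amplitudes and peak times came from the cosine fit, with standard errors by the delta method from each gene's own spread. Amplitude differences were tested by a Wald test on these. Benjamini-Hochberg adjusted p under 0.05 over all genes was the threshold. Rhythms per regimen used the deposited scores, with p-values of JTK_CYCLE and the Lomb-Scargle periodogram joined by Fisher's method, in Python 3.11.15 (numpy 2.4.6, scipy 1.17.1, pandas 2.3.3; plots in matplotlib 3.10.9, alignments in Biopython 1.88). Programs were tested on simulated data.

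The members and lists were chosen with earlier results of these data known. Named genes are the 13 mitochondrial members, in each complex by gene name (Ndufa4 and Ndufa4l2 then under complex I) the 2 nuclear members of at least 1 CPM with the smallest p for level and the 2 for rhythm difference, and paralogue pairs. Others named for a small count, or for holding at all time points, were chosen after their values were seen. Alternatives covered scaling, pseudocount, filter, libraries, ZT24, replicate block, test and unit. Replicates were compared by chi-square over genes, and none agreed within sampling noise (at least 15.2 per degree of freedom). Intervals were not needed for shares, which are means over mice. No gene set test was run. For 1 nuclear member, single values are not reported here, and plots that name members leave it out.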

Additional observations from a re-analysis of the deposited data

Results flagged for a closer look

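In groups of 4 mice, 15 of 224 tested groups held a library whose distance to the nearest other was a larger part of the group's whole range than Dixon's 95% critical value. Chance flags about 1 in 20 groups, so a count of this size is near what chance gives. The level of the 5 mitochondrial members with no copy was highest in NRF ZT12 replicate 3, at 0.024, with the others at -0.16 to -0.13. Cox7a1 was highest in DRF ZT4 replicate 4, at 10.6 CPM against 5.79 to 6.37 CPM, and in NRF ZT16 replicate 3, at 3.21 CPM against 2.24 to 2.35 CPM. Ndufa10 was lowest in DRF ZT0 replicate 4, one of the libraries that stand apart, at 181 CPM against 262 to 269 CPM. It was highest in DRF ZT24 replicate 4, at 318 CPM, and lowest in NRF ZT16 replicate 1, at 184 CPM. NRF ZT16 replicate 1 was also lowest in Sdha, at 658 CPM, and NRF ZT24 replicate 3 was highest in Sdha, at 813 CPM. Atp5b was lowest in NRF ZT8 replicate 2, at 1498 CPM against 1865 to 1921 CPM. Cox6b2 was highest in NRF ZT4 replicate 3, at 4.98 CPM, and Ndufa4l2 was lowest in DRF ZT16 replicate 3, at 8.92 CPM against 11.9 to 12.0 CPM. DRF ZT4 replicate 1 was highest in mt-Nd2, at 4336 CPM, and in mt-Nd4, at 4099 CPM. DRF ZT12 replicate 1 was highest in mt-Nd4, at 4111 CPM, and NRF ZT8 replicate 1 in mt-Nd6, at 1281 CPM.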

How the results depend on the processing

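Depth limits mainly Cox6a2 and mt-Atp8, which lay near 1 CPM. With 4 mice per group, the time-point counts moved with single libraries, and the cause was not tested. Shares of all genes are given for the main fits only, so counts from the alternatives have no such share beside them. No call of a named gene turned direction: 5842 of the alternatives for named genes kept their side of the threshold, 126 lost it and 78 gained it. The mean-level differences of Cox6a2, Cox8b, Ndufa4l2, Atp5g2, Ndufb2, mt-Atp8 and mt-Nd6, which were not called, changed sign under some alternatives, in Cox8b between -0.07 and 0.10 when each replicate number was left out.

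Members whose mean level differs between DRF and NRF numbered 43, and 29 to 39 when each replicate number was left out and 38 to 55 when each library was. Members that differ between DRF and NRF at ZT0 numbered 3 (0 to 7 and 2 to 6), at ZT4 34 (7 to 31 and 18 to 38), at ZT8 2 (1 to 7 and 2 to 18), at ZT12 3 (1 to 3 and 2 to 4), at ZT16 5 (0 to 1 and 1 to 12), at ZT20 4 (1 to 6 and 1 to 8) and at ZT24 30 (3 to 31 and 20 to 42). Members whose rhythm differs at the same zeitgeber time numbered 7 (3 to 7 and 5 to 9), and members whose rhythm differs after moving DRF by 12 h numbered 10 (1 to 13 and 5 to 23). Members whose amplitude differs numbered 0 (0 to 0 and 0 to 1). Members that differ between ZT24 and ZT0 under DRF numbered 0 (0 to 1 and 0 to 2), those under NRF 0 (0 to 9 and 0 to 2), and members whose ZT24 minus ZT0 difference differs between regimens 0 (0 to 15 and 0 to 7). Members rhythmic under NRF numbered 5 (2 to 4) and members rhythmic under DRF 4 (0 to 4). The percent of recovered reads on mitochondrial members was 6.00 to 6.22 in DRF and 5.21 to 5.39 in NRF.

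Scaling by total recovered reads gave 24 members whose rhythm differs after moving DRF by 12 h, 5 at ZT12, 15 at ZT16, 8 at ZT20, 7 that differ between ZT24 and ZT0 under NRF, 13 members rhythmic under NRF and 7 members rhythmic under DRF. Totals without the mitochondrial members gave 24, 5, 16, 8, 7, 17 and 7, and 3 for the difference between regimens of ZT24 minus ZT0. Median-of-ratios size factors gave 1 for ZT24 against ZT0 under NRF and 1 for that difference. The filter at 1 CPM gave 11 at ZT16, 11 at ZT20 and 1 for ZT24 against ZT0 under NRF, and a pseudocount of 0.5 CPM gave 1 for the difference between regimens. Without the 2 DRF libraries that stand apart there were 25 after moving DRF by 12 h, 27 at ZT8, 16 at ZT16, 10 at ZT20 and 2 for ZT24 against ZT0 under NRF. limma-voom gave 8 at ZT16 and 9 at ZT20. On log2(deposited value + 1), limma gave 4 members whose rhythm differs at the same zeitgeber time, 1 after moving DRF by 12 h, 2 at ZT16, 6 at ZT24 and 1 for the difference between regimens. Without ZT24 there were 15 members rhythmic under NRF and 0 under DRF, and without ZT0 and ZT24, added after seeing the data, 4 members whose rhythm differs at the same zeitgeber time. JTK_CYCLE alone gave 7 members rhythmic under DRF and the limma F test 9. Over only the 5 mitochondrial members with no nuclear copy, also added then, the percent of recovered reads was 2.93 in DRF and 2.59 in NRF.

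Replicate numbers name different mice and did not pair the libraries: same-numbered DRF and NRF libraries correlated at -0.303 to 0.338 in their deviations, and 7 of 28 correlated best with their own number. With the replicate number as a block, 44 members differed in mean level, 36 at ZT4 and 32 at ZT24, 9 members were rhythmic under NRF, and 1 was called for the difference between regimens of ZT24 minus ZT0.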

Other observations

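Ndufa12, an accessory subunit of complex I at 26.1 ± 13.7 FPKM, was picked out after its values were seen, for its spread between mice of the same group. Under NRF it was at 21.7, 71.5, 74.9 and 82.5 CPM at ZT0 and at 18.7, 19.2, 75 and 22.1 CPM at ZT24. Under DRF it was at 23.3, 53.4, 73.8 and 16.8 CPM at ZT0 and at 71.4, 78.1, 52.2 and 32.7 CPM at ZT24. Its differences of -0.64 at ZT0 and 0.97 ± 0.52 (SE) at ZT24 stand out in the map of members by time but did not pass in limma (adjusted p = 0.493 and 0.256), nor did its mean level (-0.13 ± 0.20, adjusted p = 0.713).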
